A study of Mus musculus with 9 samples.

Results

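The 10 genes described here are long noncoding RNA genes, measured in mouse RAW264.7 cells at rest, during osteoclast differentiation, and during differentiation in the presence of uridine (UD). They were chosen by gene symbol, as 10 of the 56691 genes listed. Gas5, Snhg1, Snhg3, Snhg5, Snhg8, Snhg12, Snhg15 and Epb41l4aos are host genes of small nucleolar RNAs (snoRNAs), and Malat1 and Neat1 are abundant nuclear RNAs. All 10 were in the table, and all 10 passed the filter on low values, which asked for 3 libraries with an FPKM of 1 or more and kept 11995 genes. FPKM is the count of a gene scaled by its exonic length and by library depth.

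A host gene carries snoRNAs in its introns, and these are cut out of the spliced-out intron and kept in the nucleolus. C/D box snoRNAs (named Snord) guide methylation of ribosomal RNA, while H/ACA box snoRNAs (named Snora) guide the conversion of uridine to pseudouridine. The spliced exons of many host genes code for no protein, begin with a run of pyrimidines as ribosomal protein mRNAs do, and are degraded by nonsense-mediated decay when they are translated. Malat1 collects in nuclear speckles, where splicing factors are stored, and its 3′ end is a triple helix in place of a poly(A) tail. Neat1 is the scaffold of paraspeckles and is made as a short polyadenylated and a long form, which share their 5′ part.

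RAW264.7 is a mouse macrophage line that forms osteoclast-like cells under RANKL, the cytokine that starts osteoclast differentiation. Total RNA was collected on day 3 from 3 groups of 3 libraries. The control group received no RANKL, the RANKL group received RANKL at 50 ng/mL, and the RANKL + UD group received the same RANKL together with UD, whose dose is not named for these libraries. All 3 groups were the same cell line, kept in culture alone with no bone or stromal cells. The design text calls the 3 libraries of a group biological replicates, but nothing says whether they came from separate cultures, so p-values measure the spread between these libraries only. The libraries were poly(A)-selected and strand-specific, so the part of Malat1 RNA that the selection recovered was not measured, and gene counts do not separate the forms of Neat1.

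The snoRNAs inside the genes fall into both classes. In the GENCODE M21 annotation of GRCm38, 26 snoRNA genes lie inside 7 of the 8 hosts, with 9 in Gas5, 8 in Snhg1, 4 in Snhg12, 2 in Snhg3 and 1 each in Snhg8, Snhg15 and Epb41l4aos. Snhg5 holds none in that release, although the deposited table places Snord50a and Snord50b inside it. Of the 26, 24 overlap an exon of at least 1 transcript of their host, since the annotation includes transcripts that keep introns. The summed count of all 26 over the 9 libraries was 1. A read from a snoRNA that overlaps a host exon fits both genes, and how such reads were counted is not given. The summed count therefore cannot tell whether snoRNAs were sequenced. The values of the hosts are those assigned to the host genes, and whether they include reads from snoRNAs was not tested.

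**Figure D1:**
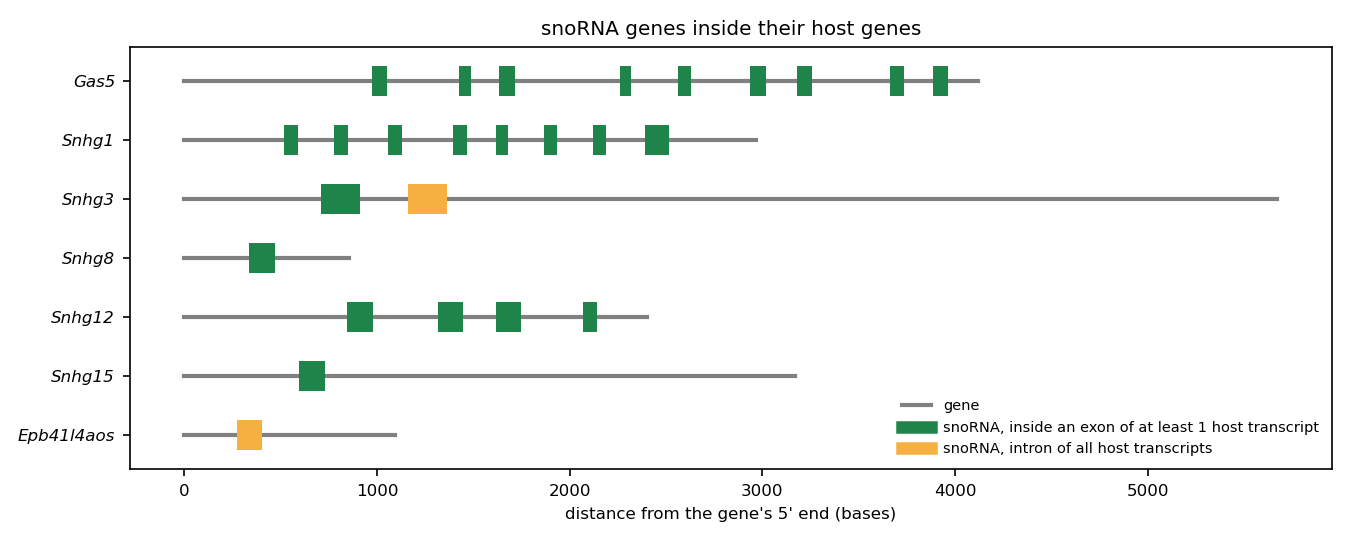
Map of the 7 host genes that hold snoRNAs, drawn to scale in bases from the 5′ end of each gene, with each annotated snoRNA as a box (green where it overlaps an exon of at least 1 host transcript, orange where it is intronic in all). Gas5 carries 9 snoRNAs and Snhg1 carries 8, while Snhg8, Snhg15 and Epb41l4aos carry 1 each.

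The following 5 snoRNAs show what the genes carry. They are printed from 5′ to 3′ as in the GENCODE M21 transcripts of GRCm38. Capitals mark the C box (TGATGA) and the D box (CTGA) of the C/D class, or the ACA box near the 3′ end of the H/ACA class. Snord47 lies in Gas5 at chr1:161038082-161038158 (+), Gm23246 in Snhg1 at chr19:8725594-8725660 (+), and Snord99 in Snhg12 at chr4:132310691-132310764 (+). Snora73a lies in Snhg3 at chr4:132352775-132352979 (-) and Snora24 in Snhg8 at chr3:123507937-123508066 (-).
Snord47: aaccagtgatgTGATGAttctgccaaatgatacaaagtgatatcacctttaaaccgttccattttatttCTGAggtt
Gm23246: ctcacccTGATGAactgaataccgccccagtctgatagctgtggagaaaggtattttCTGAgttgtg
Snord99: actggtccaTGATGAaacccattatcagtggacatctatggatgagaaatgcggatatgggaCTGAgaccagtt
Snora73a: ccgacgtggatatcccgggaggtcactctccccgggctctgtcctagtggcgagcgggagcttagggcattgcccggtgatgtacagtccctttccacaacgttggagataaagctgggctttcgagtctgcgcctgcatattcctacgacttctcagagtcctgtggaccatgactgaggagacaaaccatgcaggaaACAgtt
Snora24: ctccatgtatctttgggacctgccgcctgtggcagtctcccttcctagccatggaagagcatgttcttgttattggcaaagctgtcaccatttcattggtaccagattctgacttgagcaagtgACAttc

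The start sites were read from RefSeq promoter windows of GRCm38.p6, which matched 8 of the 10 genes with 9 windows, as Gas5 has 2. Neat1 and Epb41l4aos had no entry. Terminal oligopyrimidine transcripts begin with a C that is followed by a run of pyrimidines. Of the windows, 6 are shown, namely the 4 of host genes with a pyrimidine at base 1 and, to set beside them, those of Snhg3 and Snhg5, the hosts called in RANKL + UD against RANKL. Each holds 15 bases before the annotated start and 25 from it, and capitals mark the pyrimidines that follow without a break from base 1. The positions are chr1:161035151-161035190 (+) for the second start of Gas5, chr3:123508312-123508351 (-) for Snhg8, chr4:132308663-132308702 (+) for Snhg12, chr19:8723472-8723511 (+) for Snhg1, chr4:132353662-132353701 (-) for Snhg3 and chr9:88522873-88522912 (-) for Snhg5.
Gas5: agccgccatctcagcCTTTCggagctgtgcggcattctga
Snhg8: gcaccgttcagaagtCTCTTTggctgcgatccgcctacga
Snhg12: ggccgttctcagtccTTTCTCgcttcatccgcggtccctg
Snhg1: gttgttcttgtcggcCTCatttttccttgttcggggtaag
Snhg3: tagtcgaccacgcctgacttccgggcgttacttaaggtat
Snhg5: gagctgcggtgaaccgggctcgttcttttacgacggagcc

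A run of at least 4 pyrimidines from base 1, with either C or T first, stood in 3 of the 9 windows (Gas5, Snhg8 and Snhg12) and in 6.86% of all 32851 windows. The run of Snhg12 begins with T, and those of Gas5 and Snhg8 begin with C. Snhg1 has 3, Malat1 has 1, and the first start of Gas5 and those of Snhg3, Snhg5 and Snhg15 have 0. The annotated base 1 was taken as given and was not measured in these cells. In the full windows, searched on both strands, the E-box CACGTG bound by MYC and MiT/TFE factors stood in 1 of the 9 (Snhg15) and in 7.15% of all windows. The AP-1 motif TGANTCA was in 0 of 9 and in 7.81% of all windows, and the FoxO motif GTAAACA in 0 of 9 and in 3.65%.

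Library totals ran from 15951800 to 19746862 counts. The 10 genes together held 0.255% to 0.449% of the counts of a library. The lowest share was that of control replicate 3, which stood apart in these RNAs. In that library Snhg3 was at 37.2% of the mean FPKM of the other 2 controls, Neat1 at 54.8%, Malat1 at 56.1%, Snhg8 at 59.6% and Snhg15 at 71.4%. The other 5 genes lay between 79.7% (Gas5) and 127% (Epb41l4aos). Over the 716 other long noncoding genes tested, the median log2 difference of control replicate 3 from the other controls was -0.22, with 511 of 716 below them, against 0.01 over 9957 protein-coding genes. In the other 8 libraries the same median for long noncoding genes lay between -0.06 and 0.11. Mitochondrial genes took 4.03% of the counts of control replicate 3, against 3.89% and 3.67% in the other controls. That share was 4.46% to 4.71% in the 6 libraries with RANKL, above all controls. The ribosomal RNA gene Rn18s-rs5 took 0.384% to 0.493% of the counts in control, 0.629% to 0.876% in RANKL and 0.376% to 0.71% in RANKL + UD. The part of these shares in the comparisons was not tested. Each fold change of the 10 genes against control is given with and without control replicate 3, and what sets that library apart was not tested.

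The labelled cell type fitted its markers. All 6 macrophage markers had a mean FPKM of at least 1 in every group, with sums of 8872 to 9460 FPKM in control, 2370 to 2600 in RANKL and 2069 to 2197 in RANKL + UD. Most of each sum came from Lyz2, at means of 8000, 1431 and 1285 FPKM. In RANKL against control edgeR called 5 of the 6 lower and 1 higher (adjusted p under 0.05), against 30.2% and 27.3% of all genes tested. With UD against RANKL these were again 5 and 1, against 20.2% and 18.6%. The 8 osteoclast markers summed to 46.7 to 49.9, 2639 to 2843 and 1665 to 1702 FPKM, with Calcr at or below a mean of 0.323 in every group. None of the 8 stromal and lymphoid markers reached 1, and their sums lay between 0.46 and 0.95 FPKM. In these bulk samples, fewer cells of a type and less RNA per cell cannot be told apart. The part of the lower macrophage sums and higher osteoclast sums in the values given here was not tested.

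Malat1 was by far the most abundant of the 10 and the 86th of all genes by its mean FPKM. It was at 396, 398 and 223 FPKM in the control libraries, 406, 354 and 336 in RANKL, and 470.1, 396 and 372 in RANKL + UD. The groups overlapped. Neat1 was second, at 64.2, 62.8 and 34.8 FPKM in control, 50.7, 42.2 and 48.6 in RANKL, and 40.8, 33.6 and 33.6 in RANKL + UD. Every RANKL + UD library lay below every RANKL library, while control replicate 3 lay within the RANKL + UD range.

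Gas5, named for its build-up in growth-arrested cells, was at 39.8, 41.01 and 32.2 FPKM in control, 31.5, 28.6 and 31.3 in RANKL, and 39.4, 34.6 and 34.3 in RANKL + UD. The RANKL libraries were thus the lowest of the 9. Snhg1 was at 24.0, 22.3 and 19.01 FPKM in control, 27.4, 27.8 and 26.4 in RANKL, and 31.1, 28.5 and 26.9 in RANKL + UD, with no control library as high as any of the other 6. Snhg8 was at 24.9, 21.1 and 13.7 FPKM in control, 17.8, 13.0 and 21.6 in RANKL, and 21.8, 16.8 and 16.6 in RANKL + UD. Its groups overlapped throughout.

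The other hosts were below 10 FPKM. Snhg5 was at 8.59, 8.42 and 7.26 FPKM in control, 7.74, 6.75 and 7.34 in RANKL, and 6.17, 5.96 and 6.07 in RANKL + UD, so that the UD libraries were the lowest of the 9 and lay close together. Snhg15 was at 7.83, 7.27 and 5.39 FPKM in control, 5.72, 4.56 and 6.94 in RANKL, and 6.83, 7.33 and 7.02 in RANKL + UD. Its groups overlapped. Snhg12 was at 5.01, 4.65 and 5.09 FPKM in control, 3.10, 3.91 and 3.57 in RANKL, and 3.72, 4.07 and 4.17 in RANKL + UD, with the controls above all others.

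Snhg3 and Epb41l4aos were the lowest in control. Snhg3 was at 3.91, 3.29 and 1.34 FPKM in control, 3.81, 2.36 and 3.75 in RANKL, and 9.18, 7.27 and 7.81 in RANKL + UD. The counts behind these values were 65, 64 and 21, then 74, 45 and 71, then 178, 117 and 133, and all 3 UD libraries lay above all 6 others. Epb41l4aos, transcribed from the strand opposite to Epb41l4a, was at 1.79, 2.96 and 3.02 FPKM in control, 4.15, 4.50 and 3.77 in RANKL, and 3.98, 3.06 and 2.84 in RANKL + UD. The RANKL libraries were above the controls and overlapped with those of RANKL + UD.

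**Figure D2:**
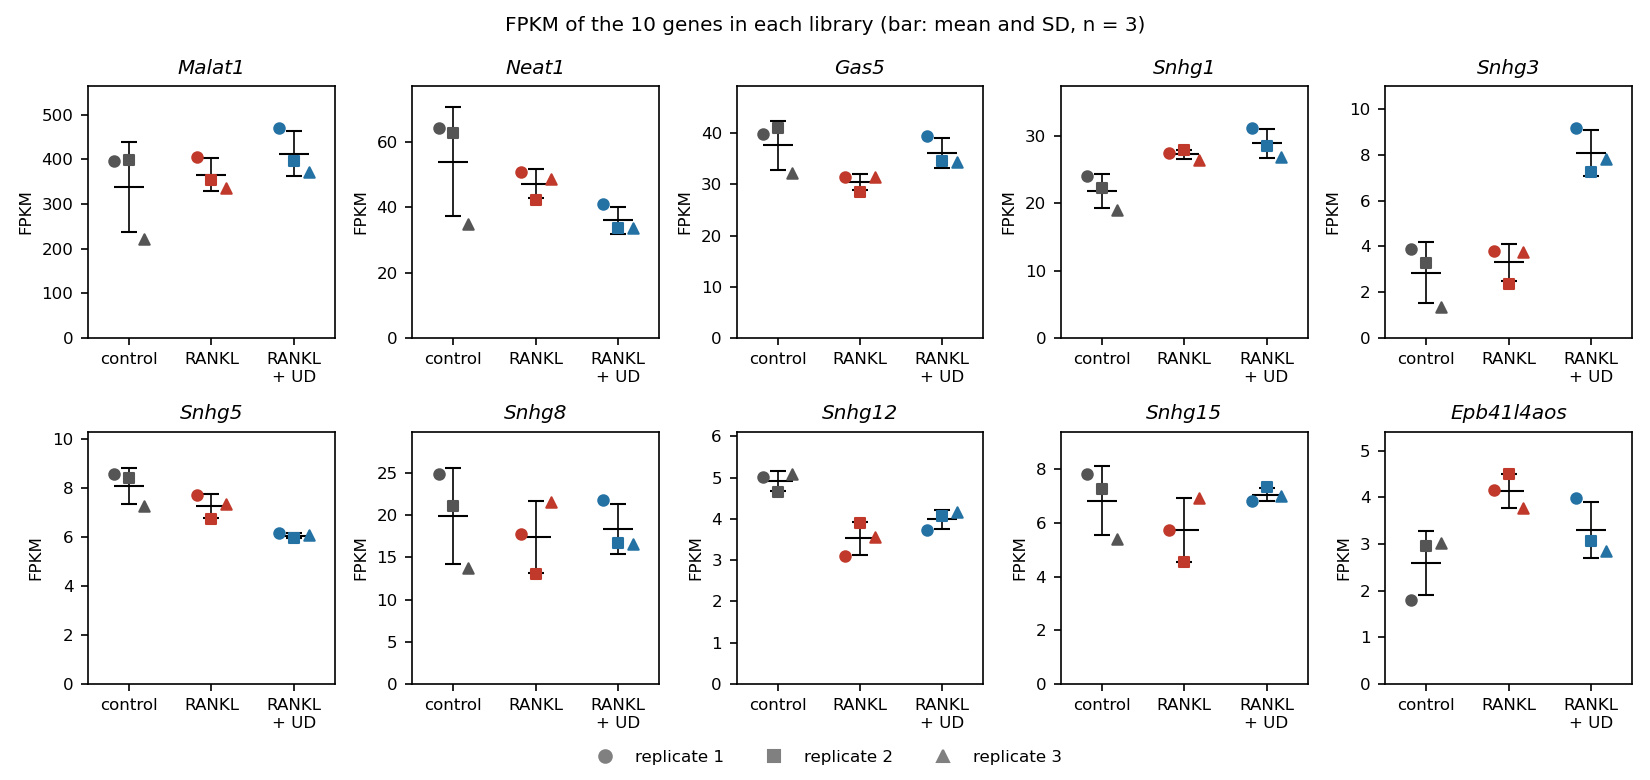
FPKM of each of the 10 genes in the 9 libraries, with points for libraries and bars for the group mean and SD of 3 libraries. Snhg3 stands at 7.27 to 9.18 FPKM in RANKL + UD and at 1.34 to 3.91 in the other 6 libraries, and control replicate 3 is the lowest control for 8 of the 10 genes.

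Ordered by mean FPKM in control, the genes ran Malat1, Neat1, Gas5, Snhg1, Snhg8, Snhg5, Snhg15, Snhg12, Snhg3 and Epb41l4aos. In that order Neat1 overlapped with Gas5 between libraries, Snhg1 with Snhg8, Snhg5 with Snhg15, and Snhg3 with Epb41l4aos, while the other neighbours did not. In RANKL the first 7 places were the same. Epb41l4aos then stood eighth, overlapping with Snhg12, which overlapped with Snhg3 in the last place. In RANKL + UD Snhg3 moved up to sixth place at 8.09 ± 0.985 FPKM (SD, n = 3), overlapping with Snhg15 at 7.06 ± 0.252. Gas5 at 36.1 ± 2.89 and Neat1 at 36.0 ± 4.15 FPKM overlapped there as well.

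The annotation behind the levels differs between the genes. The exonic length used for FPKM equals the whole span of the gene for Malat1 (6988 bases), Neat1 (21163), Snhg1 (3011), Snhg8 (860), Snhg12 (2831) and Epb41l4aos (1162), and 97.0% of it for Gas5 (4001 of 4125). For these genes reads from unspliced or intron-keeping RNA count like those from spliced RNA. For Snhg3 the exons cover 17.4% of the span (986 of 5673 bases) and for Snhg5 they cover 12.8% (3634 of 28295). The deposited Snhg5 is much longer than that of GENCODE M21, which runs only from 88521050 to 88522929 on chromosome 9 of GRCm38. How much of the Snhg5 count came from outside that stretch was not tested. Snhg3 overlaps Rcc1 on the same strand over 5592 of its 5673 bases, and Gas5 overlaps Zbtb37 on the opposite strand over 428 bases. Strand cannot separate Snhg3 from Rcc1, so reads in that overlap could belong to either gene. Whether the counting used the strand is not given in the sources used here, so reads shared by Gas5 and Zbtb37 could also belong to either.

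The first comparison asks how the 10 RNAs stood after RANKL-induced differentiation. Snhg1 and Epb41l4aos rose, Gas5 and Snhg12 fell, and the other 6 did not pass the test. The 2 of 10 called higher and 2 of 10 called lower stand beside 27.3% and 30.2% of all 11995 genes tested, or 57.6% in either direction. A gene was called when its adjusted p in edgeR's quasi-likelihood test was under 0.05.

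Snhg1 went from 21.8 ± 2.53 to 27.2 ± 0.721 FPKM (SD, n = 3), a log2 difference of 0.41 with TMM scaling (SE 0.0744, edgeR adjusted p = 7.61e-05). This call was kept under all 17 alternatives, and without control replicate 3 the log2 difference was 0.32. Epb41l4aos went from 2.59 ± 0.693 to 4.14 ± 0.365 FPKM, with a log2 difference of 0.76 (SE 0.224, edgeR adjusted p = 0.00641), and 0.87 without control replicate 3. Its call also held under all 17 alternatives, most narrowly without control replicate 1, where the log2 difference was 0.56 (edgeR adjusted p = 0.0436). The counts behind it were low, at 35, 68 and 56 in control and 95, 101 and 84 in RANKL.

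Gas5 fell from 37.6 ± 4.78 to 30.5 ± 1.64 FPKM, with a log2 difference of -0.22 (SE 0.0763, edgeR adjusted p = 0.0185). The call rested on single libraries. Without control replicate 1 edgeR's adjusted p was 0.0833, without control replicate 2 it was 0.128 and without RANKL replicate 2 it was 0.0987. Without control replicate 3 the log2 difference was -0.32 (edgeR adjusted p = 0.000148). Snhg12 fell from 4.92 ± 0.234 to 3.53 ± 0.407 FPKM, with a log2 difference of -0.39 (SE 0.122, edgeR adjusted p = 0.00943). Its call was lost only without RANKL replicate 1, at an adjusted p of 0.0554 among 17 alternatives between 0.00203 and 0.0554, and without control replicate 3 it had -0.37 (adjusted p = 0.0256).

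Control replicate 3 decided several of the genes that did not pass. With all 9 libraries Neat1 had a log2 difference of -0.11 (edgeR adjusted p = 0.549), and without that library -0.34 (adjusted p = 0.00031). Snhg15 had -0.17 (edgeR adjusted p = 0.314) and then -0.31 (adjusted p = 0.0467). Malat1 had 0.20 (edgeR adjusted p = 0.241) and then -0.03, and Snhg3 had 0.29 (adjusted p = 0.401) and then -0.03. Without it 2 genes were thus called higher and 4 lower, namely Neat1, Gas5, Snhg12 and Snhg15. Over all 11995 genes tested, the same fit called 3237 higher and 3546 lower. Snhg5 at -0.07 (then -0.14) and Snhg8 at -0.11 (then -0.31) were not called either way. FPKM of the groups did not overlap for 4 of the 10 genes, Snhg1 and Epb41l4aos above and Gas5 and Snhg12 below, against 61.7% of all genes tested.

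The second comparison asks what UD added to RANKL. Snhg3 rose, Neat1 and Snhg5 fell, and the other 7 did not pass the test. The 1 of 10 called higher stands beside 18.6% of all genes tested, and the 2 of 10 called lower beside 20.2%, with 38.8% called in either direction. Control libraries enter here through the filter that sets the genes tested, the TMM factors and the shared estimate of the spread.

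Snhg3 went from 3.31 ± 0.82 to 8.09 ± 0.985 FPKM (SD, n = 3), a log2 difference of 1.21 (SE 0.255, edgeR adjusted p = 0.000749), or 2.31-fold. It was called under all 17 alternatives, with log2 differences between 1.01 and 1.32 and adjusted p of at most 0.0175. Rcc1, the nucleotide exchange factor of Ran with which Snhg3 overlaps, also rose, from 10.3 ± 0.596 to 14.4 ± 0.986 FPKM (log2 difference 0.39, edgeR adjusted p = 0.000334). Gm17300, which lies opposite to Snhg3 over 1611 bases, was at 2.14 ± 0.302 and 3.39 ± 0.735 FPKM with an adjusted p of 0.0511.

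Snhg5 fell from 7.28 ± 0.498 to 6.07 ± 0.105 FPKM, with a log2 difference of -0.35 (SE 0.0916, edgeR adjusted p = 0.00466). It was called under all 17 alternatives, with log2 differences between -0.40 and -0.23. Neat1 fell from 47.2 ± 4.43 to 36.0 ± 4.15 FPKM, with a log2 difference of -0.47 (SE 0.143, edgeR adjusted p = 0.0119). All 3 UD libraries lay below all 3 RANKL libraries, but the call depended on the method and on the libraries fitted. The adjusted p of Neat1 was 0.0855 with DESeq2 and 0.178 with limma on log2 FPKM, and with edgeR 0.0501 without RANKL replicate 1, 0.0599 without RANKL + UD replicate 2 and 0.0596 without RANKL + UD replicate 3. In the other direction, edgeR gave 3.41e-06 without control replicate 3, 1.32e-05 with only the 6 libraries of the comparison and 0.00142 with a replicate block.

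Gas5 was not called, and it passed the test under 4 of 17 alternatives. It went from 30.5 ± 1.64 to 36.1 ± 2.89 FPKM without overlap between the groups, with a log2 difference of 0.16 (edgeR adjusted p = 0.106) over all 9 libraries. The adjusted p was 0.0392 when only the 6 libraries of the comparison were fitted, 0.027 without control replicate 3, 0.0278 with no filter on low values and 0.0119 with total counts as the scaling. With DESeq2 it was 0.155. With edgeR it was 0.337 without RANKL replicate 2 and 0.442 without RANKL + UD replicate 1, where the log2 difference was 0.087. Epb41l4aos had a log2 difference of -0.41 (SE 0.217, edgeR adjusted p = 0.149) and Snhg15 one of 0.21 (SE 0.138, adjusted p = 0.244). Malat1 at 0.09 (SE 0.139), Snhg12 at 0.09 (SE 0.124), Snhg8 at -0.01 (SE 0.184) and Snhg1 at -0.00 (SE 0.0732) had log2 differences within 1 SE of 0. Between the groups 4 of the 10 genes did not overlap in FPKM, Neat1 and Snhg5 below and Gas5 and Snhg3 above, against 51.7% of all genes tested.

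**Figure D3:**
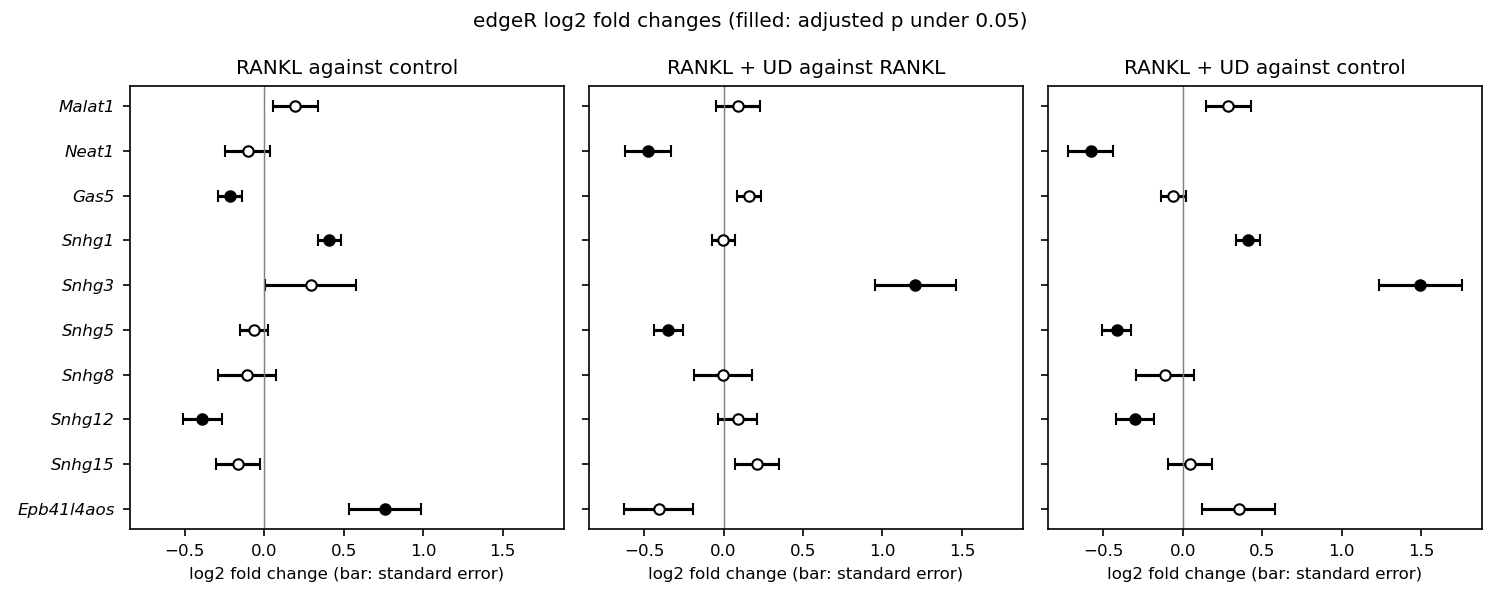
Log2 differences of the 10 genes in each comparison with TMM scaling, with bars for 1 SE of the edgeR fit and filled points for genes called at an adjusted p under 0.05. Snhg3 stands at 1.21 in RANKL + UD against RANKL, while Snhg1 stands at 0.41 in RANKL against control and at -0.00 between the RANKL groups.

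Malat1 and Neat1 lie close together on chromosome 19 and were read as a ratio within each library, which no scaling of libraries changes. The ratio was chosen after the values of both genes had been seen. Malat1 FPKM divided by Neat1 FPKM was 6.16, 6.35 and 6.4 in control, 8.01, 8.39 and 6.91 in RANKL, and 11.5, 11.8 and 11.1 in RANKL + UD. The 3 groups did not overlap, and control replicate 3, which was low in both RNAs, had a ratio of 6.4 beside 6.16 and 6.35 in the other controls. The means were 6.3 ± 0.126, 7.77 ± 0.768 and 11.5 ± 0.358 (SD, n = 3), and the two-sided exact permutation test gave p = 0.1 for each pair of groups, the smallest that 3 against 3 libraries allow.

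Snhg3 was set against Rcc1 in the same way. Of the counts of Snhg3 and Rcc1 together, Snhg3 took 8.62%, 6.75% and 2.62% in control, 8.87%, 5.21% and 8.82% in RANKL, and 14.7%, 10.7% and 12.4% in RANKL + UD. The UD libraries were above all others. The means were 6% ± 3.07, 7.63% ± 2.1 and 12.6% ± 2 (SD, n = 3), with an exact permutation p = 0.5 for RANKL against control and p = 0.1 for RANKL + UD against either group.

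**Figure D4:**
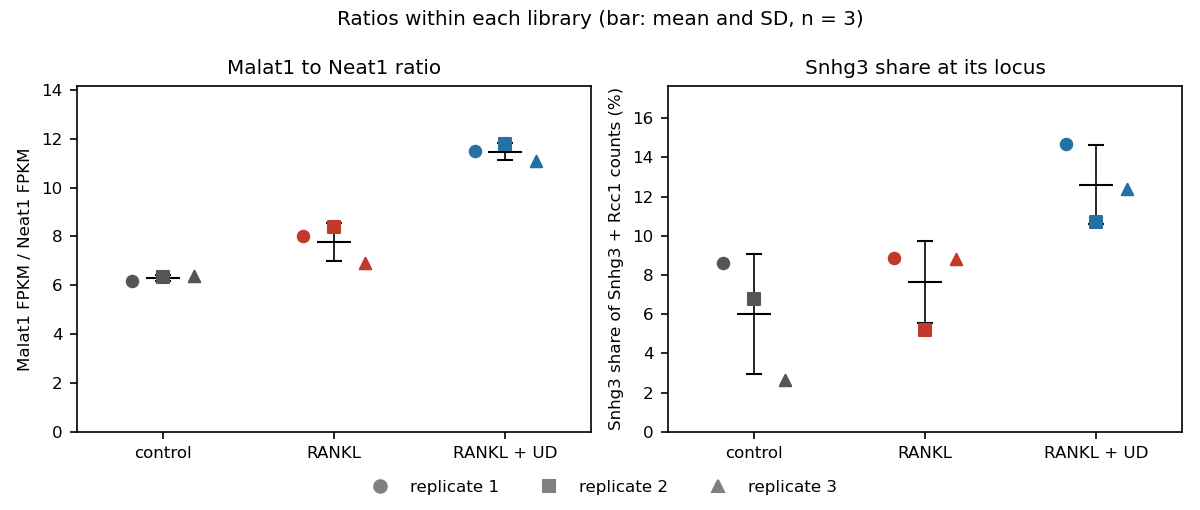
Malat1 to Neat1 ratio of FPKM, and Snhg3 as a percentage of Snhg3 and Rcc1 counts, in each of the 9 libraries with group means and SD. The Malat1 to Neat1 ratio lies at 6.16 to 6.4 in control, 6.91 to 8.39 in RANKL and 11.1 to 11.8 in RANKL + UD.

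The third comparison sets RANKL + UD against control and shares its libraries with the other comparisons. Snhg1 and Snhg3 rose and Neat1, Snhg5 and Snhg12 fell, so 2 of 10 were called higher and 3 of 10 lower, beside 26.7% and 27.3% of all genes tested, or 54% in either direction. Snhg3 had a log2 difference of 1.496 (SE 0.263, edgeR adjusted p = 5.79e-05), which is 2.82-fold, and 1.18 without control replicate 3. Snhg1 had 0.41 (edgeR adjusted p = 8.87e-05), and 0.32 without that library.

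Snhg5 fell by 0.42 on the log2 scale (edgeR adjusted p = 0.000636), and by 0.49 without control replicate 3. Neat1 had a log2 difference of -0.58 (SE 0.143, edgeR adjusted p = 0.00172), and of -0.82 (adjusted p = 1.37e-09) without control replicate 3. With limma its adjusted p was 0.0594 and 0.0606 at the pseudocounts of 1 and 0.1. Snhg12 had a log2 difference of -0.30 (edgeR adjusted p = 0.0421), and its call was lost under 7 of 17 alternatives, with an adjusted p of up to 0.136. Without control replicate 3 it had -0.28 (adjusted p = 0.092).

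Malat1 had a log2 difference of 0.29 (edgeR adjusted p = 0.0903) with all libraries and 0.06 (adjusted p = 0.536) without control replicate 3. It was called higher without control replicate 1 (0.42, edgeR adjusted p = 0.0208) and without control replicate 2 (0.41, adjusted p = 0.0302), where control replicate 3 was 1 of the 2 controls left. Epb41l4aos, higher in RANKL than in control, had 0.35 here (SE 0.231, edgeR adjusted p = 0.21), and 0.46 (adjusted p = 0.134) without control replicate 3. Gas5 had -0.06 (edgeR adjusted p = 0.541), and without control replicate 3 it was called at -0.16 (adjusted p = 0.0379). Snhg15 had 0.04 and Snhg8 -0.11, and without that library -0.10 and -0.31, none of them called. The groups did not overlap in FPKM for Snhg1 and Snhg3, which were above, and for Snhg5 and Snhg12, which were below, so 4 of 10 against 59.9% of all genes tested.

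Lists of genes that work with these RNAs were counted in the same fits and described by their counts and medians, beside -0.03 (RANKL against control) and 0.00 (RANKL + UD against RANKL) for the median log2 difference of all genes tested. The shares of all genes called, to set beside every count, were 27.3% higher and 30.2% lower under RANKL, and 18.6% higher and 20.2% lower with UD against RANKL. Of the other snoRNA host lncRNAs, 14 of 15 listed were in the table and 6 were tested. In RANKL against control 0 of the 6 were called, by edgeR or by DESeq2, and 0 were at an unadjusted p under 0.05, with a median log2 difference of -0.14. With total counts as the scaling, or without control replicate 3, 1 was called lower. With UD against RANKL 2 of the 6 were called higher and 0 lower by edgeR and by DESeq2, 0 being lower at an unadjusted p under 0.05, with a median of 0.21. These were Snhg20 (3.77 ± 0.276 to 6.08 ± 1.08 FPKM, log2 difference 0.61, edgeR adjusted p = 0.000767) and Dancr (1.25 ± 0.172 to 1.99 ± 0.0416 FPKM, 0.58, adjusted p = 0.0287). With total counts as the scaling 3 of the 6 were called higher and 0 lower, as also without control replicate 3. At an unadjusted p under 0.05, 1 was lower with RLE factors and 1 without control replicate 3.

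Protein-coding snoRNA hosts carry snoRNAs in the introns of mRNA genes, and both comparisons of them share the RANKL libraries. In RANKL against control 14 of 20 were called higher and 2 lower (median log2 difference 0.25), and with UD against RANKL 3 were higher and 14 lower (median -0.18). With total counts as the scaling these were 11 and 3, then 5 and 6, so the second count depended on the scaling. Without control replicate 3 they were 14 and 3, then 3 and 14. Members with the largest called differences code for proteins with other roles than the snoRNAs. Under RANKL they were Hspa8, a cytosolic chaperone (0.51), Eef1b2, a translation elongation factor (0.49), and Rpl13a, a ribosomal protein (0.39). With UD against RANKL they were Rpl4, a ribosomal protein (-0.41), Rcc1 (0.39) and Rpl13a (-0.39).

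Proteins of the snoRNA particles bind the C/D or H/ACA RNA or assemble it. Of 13 tested, 2 were called higher and 2 lower under RANKL (median 0.08), and 6 were higher with UD against RANKL (median 0.16). With total counts as the scaling these were 2 and 4, then 8 higher, and without control replicate 3 they were 2 and 2, then 9 higher. In the second comparison 0 were lower by edgeR, by DESeq2 and at an unadjusted p under 0.05, and DESeq2 called 4 higher. Dkc1, the pseudouridine synthase of the H/ACA particle, fell under RANKL (-0.22, edgeR adjusted p = 0.00111) and rose with UD against RANKL (0.38, adjusted p = 4.73e-06). Its FPKM was 33.1 ± 0.953 in control, 26.8 ± 1.01 in RANKL and 37.1 ± 1.3 in RANKL + UD. Nhp2 of the same particle rose under RANKL (0.37). The other gene called higher there, the assembly factor Nopchap1, stood at a mean of 0.83 FPKM in control, 0.967 in RANKL and 1.05 in RANKL + UD and passed the filter only through libraries with RANKL, so its call is no result, and without it 1 of 12 was called higher and 2 lower. Nop10 (0.51, edgeR adjusted p = 0.000215) and Nop56, a core protein of the C/D particle that is also a host (0.18), rose with UD against RANKL.

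Nonsense-mediated decay removes the spliced transcripts of many hosts. Of its 14 factors tested, 5 were called higher and 5 lower under RANKL (median 0.07), and 5 higher and 1 lower with UD against RANKL (median 0.10). With total counts as the scaling these were 2 and 5, then 8 and 1, and without control replicate 3 they were 4 and 3, then 5 and 1. Upf1, the helicase of the pathway, fell from 16.3 ± 0.375 to 10.0 ± 0.313 FPKM under RANKL (-0.61, edgeR adjusted p = 5.61e-08). Smg1, the kinase of Upf1, fell under RANKL (-0.39) and rose with UD against RANKL (0.38), and Smg5 rose under RANKL (0.40). Smg9, a partner of Smg1, fell with UD against RANKL (-0.41) and Upf3b rose (0.33).

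Of 12 paraspeckle proteins, 4 were called higher and 2 lower under RANKL (median 0.09), but 0 and 5 with total counts as the scaling and 3 and 3 without control replicate 3. With UD against RANKL, where Neat1 fell, 4 were higher and 0 lower by edgeR (median 0.10), with 3 and 0 by DESeq2, 4 and 1 at an unadjusted p under 0.05, 6 and 0 with total counts, 2 and 1 with RLE factors, and 6 and 1 without control replicate 3. Rbm14 (-0.27) fell and Pspc1 (0.22) rose under RANKL. Rbm14 (0.46), Nudt21 (0.28) and Sfpq (0.15) rose with UD against RANKL. Sfpq, which Neat1 binds in the paraspeckle core, was at 80.3 ± 4.01 FPKM in RANKL and 94.4 ± 1.59 in RANKL + UD (edgeR adjusted p = 0.035).

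Of 15 nuclear speckle proteins, 2 were called higher and 9 lower under RANKL (median -0.13), and 5 higher and 1 lower with UD against RANKL (median 0.07). Without control replicate 3, in which 13 of the 15 lay below the other controls, the first pair was 2 and 10, and with total counts as the scaling the second pair was 11 and 1. The kinases Clk4 (-0.86) and Clk1 (-0.75), which phosphorylate splicing factors, fell under RANKL, as did Srsf7 (-0.35). With UD against RANKL Pnn (0.70), Srsf7 (0.32) and Srsf3 (0.29) rose. Clk1 was at 26.6 ± 1.37, 14.9 ± 0.874 and 13.5 ± 0.15 FPKM in control, RANKL and RANKL + UD.

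Of 15 other well-known lncRNAs, 9 were tested. Under RANKL 5 were called higher and 2 lower (median 0.30), and with UD against RANKL 3 were higher and 2 lower (median 0.27). With total counts as the scaling these were 5 and 3, then 5 and 2, and without control replicate 3 they were 5 and 2, then 4 and 2. Mir155hg, the host of miR-155, was at 0.343 ± 0.227 FPKM in control and 1.84 ± 0.436 in RANKL. It passed the filter only through the groups with RANKL, and Ftx likewise only through groups other than RANKL, so their calls are no result, and without both 4 of 7 were called higher and 1 lower under RANKL. Mir22hg rose from 16.9 ± 0.928 to 26.0 ± 1.68 FPKM under RANKL (0.71) and was at 15.6 ± 1.62 with UD (-0.82 against RANKL, edgeR adjusted p = 1.74e-07). Dleu2 fell under RANKL (-0.93) and rose with UD against RANKL (0.47), and Pvt1 fell with UD against RANKL (-0.53).

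**Figure D5:**
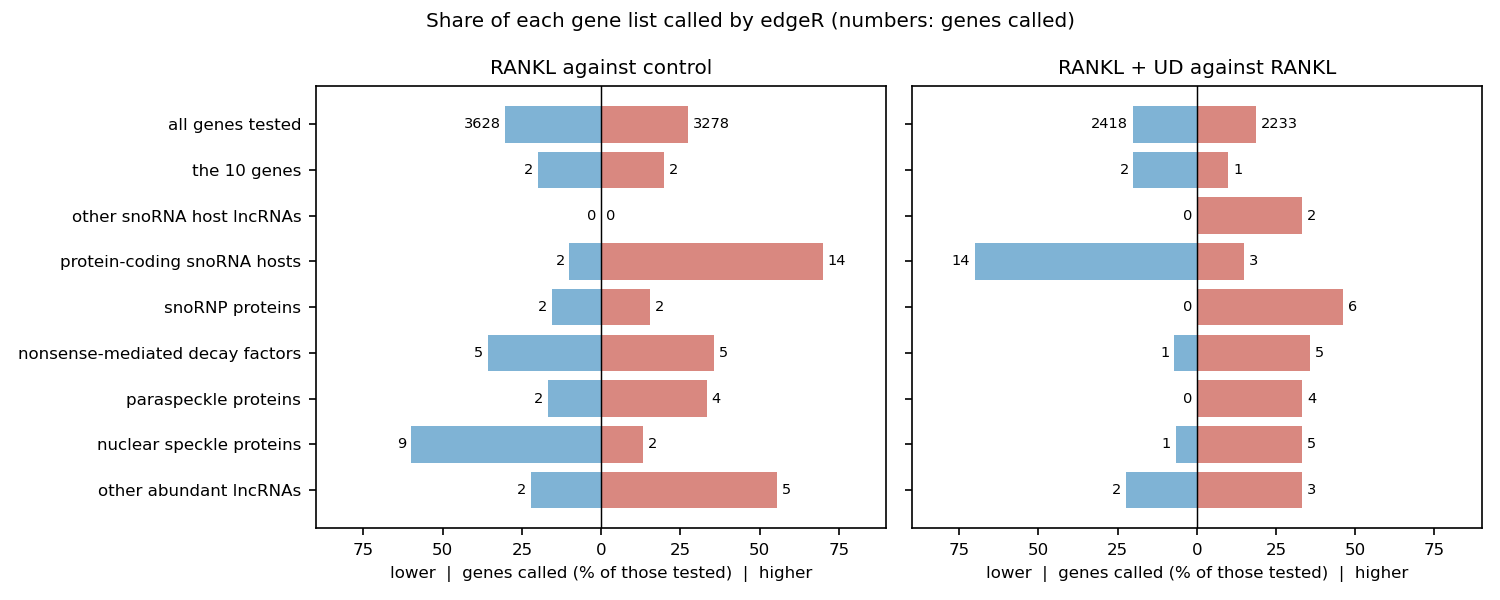
Share of the tested genes of each list, in percent, called higher (right, red) or lower (left, blue) by edgeR in RANKL against control and in RANKL + UD against RANKL, with the number of genes called at the end of each bar. Protein-coding snoRNA hosts stand at 14 higher and 2 lower in the first and 3 higher and 14 lower in the second.

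Genes with the most similar pattern were sought for the 3 most abundant members over all 9 libraries, by Pearson's r of depth-scaled log2 counts among 4741 genes with a mean FPKM of at least 10. For Malat1 they were Ewsr1 (r = 0.957), Taf15 (0.948) and the pseudogene Hmgn2-ps1 (0.939). For Neat1 they were Ccdc9 (0.964), H3f3b (0.937) and Dync1li2 (0.921), and for Gas5 they included Myl12b (0.961) and Anp32e (0.944). These values are descriptions over n = 9 points that share libraries, groups and scaling, and the highest of 4741 values is high by selection. Control replicate 3, low in all 3 RNAs, is among the points.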

How the data were processed

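RNA of RAW264.7 cells was analysed in 9 libraries (control, RANKL and RANKL + UD, 3 libraries a group). The counts per gene were deposited by the authors without normalization. The FPKM deposited beside them divide each count by exonic length and library total, and computing them again gave the deposited value within 0.0051 for 100% of genes. Value columns named for the model group were assigned to RANKL, and 0 columns were unused. The labels name mm10, but only 1472 of 52073 genes shared with GENCODE M21 (GRCm38) had the same start and end, so coordinates given here are those of GRCm38, matched by gene identifier. Spans, exonic lengths and overlaps between genes are those of the deposited annotation. The aligner, the counting tool and the annotation release are not given in the sources used here.

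The 11995 genes that reached an FPKM of 1 in 3 or more libraries were tested with edgeR 4.0.16 in R 4.3.3, by the quasi-likelihood test with TMM scaling (factors 0.959 to 0.962 in RANKL, 1.01 to 1.03 in the others), all 9 libraries in 1 fit and Benjamini-Hochberg adjustment over all genes tested. The TMM factors place log2 differences from control to RANKL above the ratio of the FPKM means. DESeq2 1.42.0, limma 3.58.1 on log2(FPKM + 1) and log2(FPKM + 0.1), RLE factors, total counts, no filter, 6 libraries only, a replicate block and each library left out were the alternatives. Python 3.11.15 (scipy 1.17.1, numpy 2.4.6, pandas 2.3.3) was used for tables and exact permutation tests. The procedures were tested on simulated data.

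The 10 genes and the lists were chosen with earlier results of these data known. Named are all 10 genes, from each of 7 lists the 3 called genes with the largest absolute log2 difference in each of the first 2 comparisons, and the 3 genes most correlated with Malat1, Neat1 and Gas5, except that single results for some genes are not reported here. The ratio within libraries, the share of Snhg3, the alternatives for the list counts and the emphasis on control replicate 3 were chosen after values had been seen. No sequencing batch or date is labelled. No interval is given for single counts, since each value is shown per library.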

Additional observations from a re-analysis of the deposited data

How the results depend on the processing

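Of 510 values of the 10 genes under the alternatives, 452 kept direction and side of the threshold, 19 lost a call, 13 gained one and 26 turned direction. No value that turned direction was a called one, and where no cause is named the cause was not tested. With UD against RANKL, Snhg1 turned to 0.0853 under total counts, 0.00487 with no filter, and 0.0792 and 0.0817 with limma at pseudocounts of 1 and 0.1, and Snhg8 turned to 0.0806, 0.000303, 0.0883 and 0.0938. With 1 library left out, log2 differences in RANKL against control ran from -0.0328 to 0.326 for Malat1, -0.341 to 0.0429 for Neat1, -0.0290 to 0.570 for Snhg3 and -0.309 to 0.0847 for Snhg8. In RANKL + UD against RANKL they ran from -0.0170 to 0.175 for Malat1, -0.0641 to 0.048 for Snhg1 and -0.18 to 0.18 for Snhg8, and in RANKL + UD against control from -0.16 to 0.00423 for Gas5, -0.10 to 0.15 for Snhg15 and -0.31 to 0.08 for Snhg8.

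Members called lower in RANKL against control numbered 2, and 1 to 4 with 1 library left out. The 4 were without control replicate 3, where 3546 of all 11995 genes tested were called lower. In RANKL + UD against RANKL, 2 in place of 1 were called higher (Gas5 added) under total counts, no filter or the 6 libraries only, and 1 to 2 with 1 library left out. There 1 in place of 2 was called lower (Neat1 lost) under DESeq2 and both limma settings, and 1 to 2 with 1 library left out. Over all genes in RANKL + UD against RANKL, total counts gave 3350 higher and 1707 lower in place of 2233 and 2418, and limma gave 1556 and 1536 lower at pseudocounts of 1 and 0.1. In RANKL against control total counts gave 2579 higher and 4421 lower in place of 3278 and 3628, and the median log2 difference of all genes was then -0.116 in place of -0.0274.

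Whether the replicate numbers pair the libraries was not settled. The 9 pairs with the same number correlated at -0.0318 to 0.173 and other pairs at -0.183 to 0.108. These ranges overlap, but the highest values, 0.173, 0.137 and 0.115, were of pairs with the same number. With the replicate block Malat1 was called higher in RANKL against control (0.23, edgeR adjusted p = 0.0323) and in RANKL + UD against control (0.32, adjusted p = 0.0047), 3 members then being called higher in each. It was also called with no filter (0.21 and 0.31). The block changed no other call of the 10 genes.

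Depth limits the low genes most, as Snhg3 rested on 21 to 178 counts a library and Epb41l4aos on 35 to 101. Groups of 3 libraries were not tested for outliers, and an exact test of 3 against 3 cannot go below 0.1.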
